A study of Mus musculus with 8 samples.

Results

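The hypoxia-inducible factor (HIF) pathway was followed through 10 genes in the newborn mouse heart. They were the subunits Hif1a, Epas1, Hif3a and Arnt, the regulators Vhl, Egln1, Egln2 and Egln3, and the direct targets Vegfa and Adm. The genes were chosen by name as regulators and targets of the pathway, and each was found by its symbol among 39614 loci that carry a gene symbol, of 80155 loci in all. Whole hearts of Hsd:ICR(CD-1) male mice were compared at postnatal day 1 (P1, 4 hearts) and postnatal day 7 (P7, 4 hearts), each heart from a separate animal and sequenced as a separate library. All hearts had their atrial appendages removed, and no treatment or genetic change is given for either stage, so the groups differ in age and in everything that comes with it.

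HIF is a transcription factor made of an oxygen-labile alpha subunit (Hif1a, Epas1 or Hif3a) and the stable beta subunit Arnt. Where oxygen is present, the prolyl hydroxylases Egln1, Egln2 and Egln3 hydroxylate the alpha subunit, and the ubiquitin ligase that contains Vhl then marks it for degradation. Where oxygen is low, the alpha subunit persists and the complex switches on genes of vessel growth, oxygen transport and glycolysis, and birth moves the heart from the low oxygen of the fetus into that of air. Because this control acts on the protein, transcript levels of the subunits do not measure HIF activity.

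The deposited values are FPKM, in which the fragments of a locus are divided by its length and by the mapped fragments of its heart, so that levels of different genes can be set side by side. The deposited files hold no fragment counts, so no counting error can be given for a value. The study lists reads per library, by far the fewest of them for P7 replicate 3. A locus was tested if it had at least 1 FPKM in at least 1 heart, which 43172 loci did, 17960 of them with a gene symbol. It was called where limma on log2(FPKM + 1) gave a Benjamini-Hochberg adjusted p under 0.05 over all tested loci and its mean FPKM differed by a factor of 1.5 or more. Fold changes (log2FC, P7 minus P1) are on the log2(FPKM + 1) scale, which understates the change of weakly expressed genes. Annotated loci lay higher at P7 in general, with a median log2FC of 0.19. Scaling each heart by the median ratio of its annotated loci moved that median to -0.01, and the numbers of loci called higher and lower from 1490 and 160 to 1479 and 1075.

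Of the 10 genes, 3 were called, and all of them were higher at P7: the prolyl hydroxylase Egln2, the vascular growth factor Vegfa and the vasodilator peptide Adm. Of all tested loci 3.82% were called, 3.45% higher and 0.371% lower, and of tested annotated loci 8.14% were called, 7.74% higher and 0.401% lower. The other 7 genes were not called, and 2 of them, Epas1 and Hif3a, had an adjusted p between 0.05 and 0.10. An unadjusted p under 0.05 was found by limma for 6 of the 10 genes, beside 18.5% of all tested loci. Here and below, the share of tested annotated loci with such a p was not computed. The genes compared are all annotated, and annotated loci were called more often than all tested loci. Only Hif3a and Egln3 had a negative log2FC, and the median over the 10 genes was 0.55. Of tested annotated loci 67.6% had a positive log2FC. In 4 genes, Epas1, Egln2, Vegfa and Adm, every P7 heart lay above every P1 heart, an arrangement found in 8.5% of all tested loci and 17.3% of tested annotated loci. In 12.5% and 20% of these loci the stages did not overlap in either direction, and in 4.03% and 2.69% the P7 hearts were the lower ones. With median-ratio scaling 4 of the 10 were called (Egln2, Epas1 and Vegfa higher, Hif3a lower), beside 5.92% of all tested loci and 11.8% of the annotated ones, and the stages did not overlap for 8. In 5 of these the P7 hearts were the higher ones, beside 7.05% of all tested loci and 15% of the annotated ones, and in 3 the lower ones, beside 10.1% and 13.5%. In either direction the shares were 17.2% and 28.5%. With a correction for the GC content of transcripts 0 were called by limma (6 had an unadjusted p under 0.05), beside 1.05% and 2.09%. With annotated loci alone in the test 5 were called (4 higher, and Hif3a lower), beside 14% of those loci. After GC correction the stages stayed apart for Vegfa and Adm alone. Shares of all loci for that separation and for an unadjusted p were not computed under GC correction. All 10 genes had at least 1 FPKM in every heart.

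**Figure D1:**
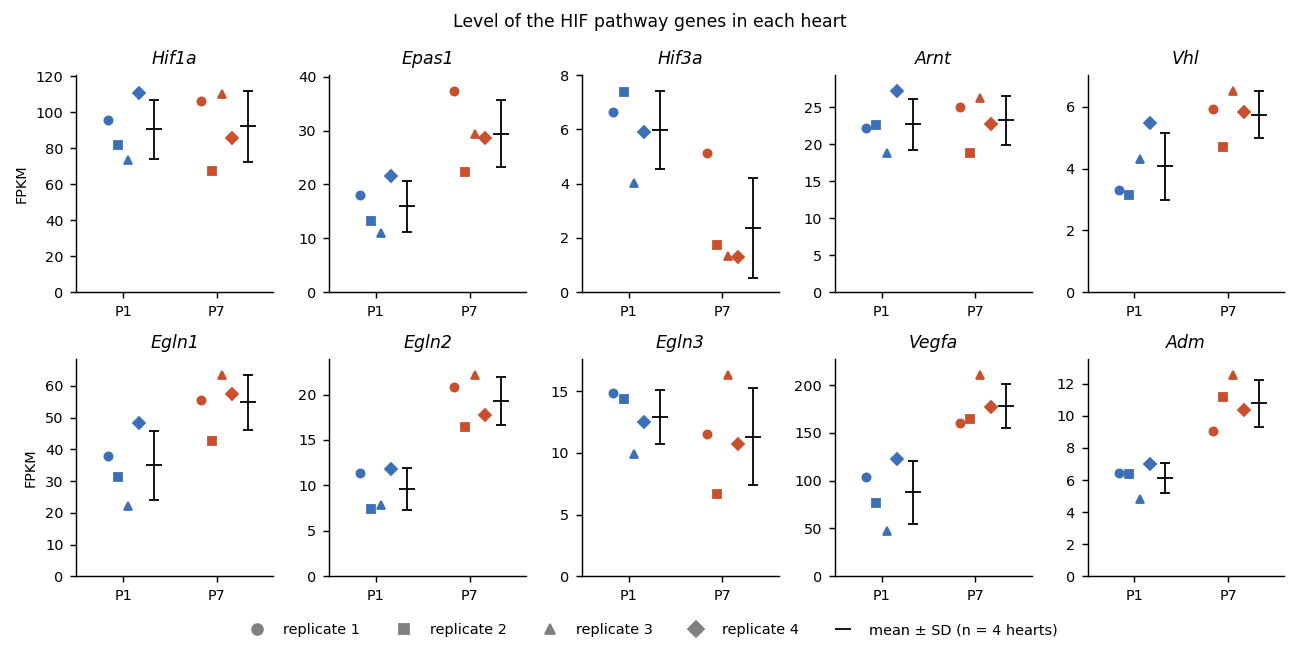
FPKM of the 10 genes (vertical axes, each from 0) in the 4 P1 hearts (blue) and the 4 P7 hearts (red), with 1 symbol per replicate number and black bars for mean ± SD. The stages do not overlap for Epas1, Egln2, Vegfa and Adm, and 1 P7 heart stands above the others for Hif3a.

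The hearts of a stage were ordered alike for most of these genes. P1 replicate 4 had the highest P1 value for 8 of the 10 genes and P1 replicate 3 the lowest for 8. At P7, replicate 3 was highest for 8 genes and replicate 2 lowest for 7. The same hearts stood out over 12730 annotated loci with at least 1 FPKM in every heart, where P1 replicate 4 was the highest P1 heart for 69.9% and P1 replicate 3 the lowest for 60.4%, and P7 replicate 3 was the highest P7 heart for 59.3% and P7 replicate 2 the lowest for 61.5%. P1 replicate 3 also had 28662 loci of at least 1 FPKM, against 20269 to 22292 in the other hearts. The largest locus held 17.0% (P7 replicate 1) to 35.7% (P7 replicate 4) of a heart's summed FPKM. Median-ratio scaling lowered the median coefficient of variation of the 10 genes from 24.1% to 14.8% at P1 and from 15.0% to 9.98% at P7. Each stage difference of the 10 genes is therefore also given on that scale where it changes a call or a direction.

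The most abundant alpha subunit was Hif1a (chr12:73901375-73949785 of GRCm38, plus strand), the broadly expressed subunit. Its FPKM was 96.0, 81.7, 73.6 and 111 in P1 replicates 1 to 4 and 106, 67.2, 110 and 85.5 in P7 replicates 1 to 4. The stages overlapped, and the lowest of the 8 values was that of a P7 heart. The means were 90.6 ± 16.5 (SD, n = 4) and 92.2 ± 19.8 (SD, n = 4), with a log2FC of 0.02 and a 95% interval of -0.46 to 0.49 (limma adjusted p = 0.970). After median-ratio scaling the log2FC was -0.25 and every P7 heart (72.3 to 90.8) lay below every P1 heart (94.6 to 101.1), without a call (limma adjusted p = 0.217). Loci named Gm15283, which GENCODE annotates as antisense to Hif1a, overlap it, and the larger of the 2 had 27.9 to 70.8 FPKM at P1 and 42.0 to 80.7 at P7. Whether strand was used in counting is not given in the sources used here, so it is not known whether reads of Hif1a and Gm15283 were kept apart.

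Epas1 (chr17:86753710-86833536, plus strand) encodes the alpha subunit known from endothelial cells. It measured 18.0, 13.2, 11.1 and 21.5 FPKM in the P1 hearts and 37.4, 22.3, 29.3 and 28.6 FPKM in the P7 hearts. Every P7 heart lay above every P1 heart, with the lowest P7 value close to the highest P1 value. The mean was 15.9 ± 4.72 (SD, n = 4) at P1 and 29.4 ± 6.18 (SD, n = 4) at P7, a log2FC of 0.86 (95% interval 0.36 to 1.37) that was not called (limma adjusted p = 0.0635). It was called in 6 of 21 other settings, over which the limma adjusted p ran from 0.0147 to 0.194. Among them were median-ratio scaling (log2FC 0.61, limma adjusted p = 0.0316) and the fit without P1 replicate 4 (log2FC 1.02, limma adjusted p = 0.0198). After GC correction the stages overlapped, with P1 replicate 4 at 21.86 and P7 replicate 2 at 21.15 FPKM (log2FC 0.74, limma adjusted p = 0.137).

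Hif3a (chr7:17029930-17062427, minus strand) encodes the alpha subunit whose short forms are known as inhibitors of the others. It had 6.64, 7.39, 4.01 and 5.89 FPKM at P1 and 5.12, 1.75, 1.33 and 1.31 FPKM at P7. P7 replicates 2, 3 and 4 lay below all P1 hearts, while P7 replicate 1 lay within the P1 range. The means were 5.98 ± 1.45 (SD, n = 4) and 2.38 ± 1.84 (SD, n = 4), a log2FC of -1.15 (95% interval -1.81 to -0.50) that was not called (limma adjusted p = 0.0553). Without P7 replicate 1 the gene was called lower, with a log2FC of -1.48 (limma adjusted p = 0.0237). Median-ratio scaling also gave a call (log2FC -1.35, limma adjusted p = 0.0275) and stages that did not overlap, and over 22 other settings the limma adjusted p ran from 0.0102 to 0.16 with 9 calls. A second and weaker locus with this symbol had 0.782 to 1.64 FPKM at P1 and 0.136 to 1.42 FPKM at P7, where replicate 1 was again the highest heart.

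The shared beta subunit Arnt (chr3:95434370-95497295, plus strand) had nearly the same mean at both stages. It measured 22.1, 22.6, 18.8 and 27.2 FPKM at P1 and 25, 18.8, 26.3 and 22.7 FPKM at P7, so the stages overlapped over almost their whole range. The means were 22.7 ± 3.47 (SD, n = 4) and 23.2 ± 3.26 (SD, n = 4), and the log2FC was 0.03 (95% interval -0.37 to 0.44, limma adjusted p = 0.925). With median-ratio scaling it turned to -0.22 and every P7 heart (20.2 to 21.5) lay below every P1 heart (23.3 to 26.9), again without a call (limma adjusted p = 0.208).

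A ratio of 2 genes within a heart does not depend on how the heart was scaled. Epas1 amounted to 0.188, 0.162, 0.150 and 0.194 of Hif1a in the P1 hearts and to 0.353, 0.333, 0.266 and 0.335 of it in the P7 hearts. The P7 hearts were all above the P1 hearts, with means of 0.173 ± 0.0209 (SD, n = 4) and 0.322 ± 0.0380 (SD, n = 4), and this also held after a correction for the GC content of transcripts (0.187 to 0.210 against 0.227 to 0.328). Hif3a amounted to 0.0692, 0.0904, 0.0545 and 0.0531 of Hif1a at P1 and to 0.0483, 0.0261, 0.0121 and 0.0153 at P7. Here all P7 hearts were below all P1 hearts, before and after GC correction, although the highest P7 heart, replicate 1, lay near the P1 range. The level of Arnt relative to the sum of the 3 alpha subunits overlapped between stages (0.183 to 0.221 at P1 and 0.168 to 0.206 at P7).

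**Figure D2:**
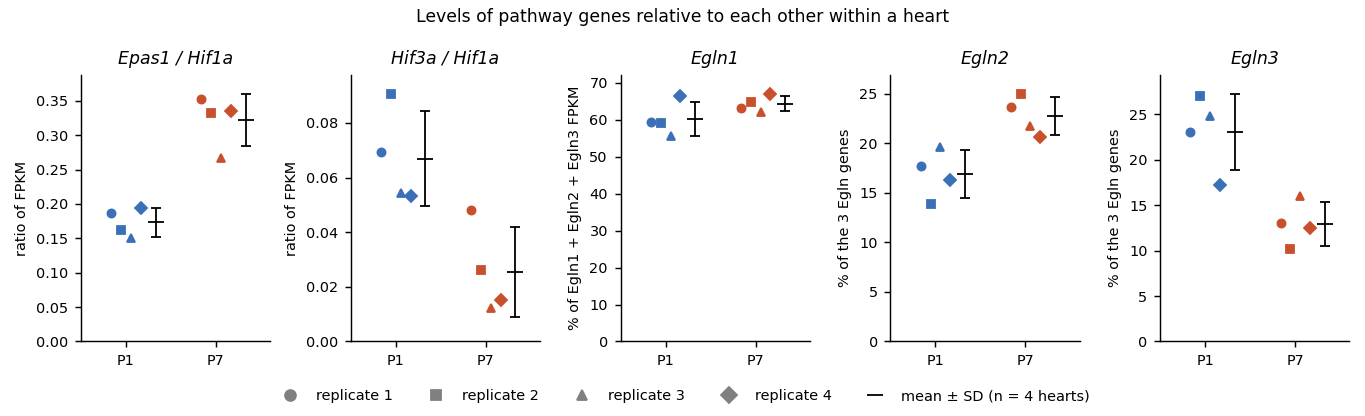
Ratios of FPKM within each heart, for Epas1 and Hif3a relative to Hif1a, and the share of each prolyl hydroxylase in the sum of Egln1, Egln2 and Egln3 (percent). Symbols are the 4 hearts of P1 (blue) and P7 (red) with mean ± SD in black, and the Egln1 panel is the only one in which the stages overlap.

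Vhl (chr6:113623959-113633144, plus strand), the substrate receptor of the ubiquitin ligase, was among the weakest of the 10 genes. It had 3.32, 3.16, 4.33 and 5.49 FPKM at P1 and 5.94, 4.70, 6.53 and 5.82 FPKM at P7. P1 replicate 4 lay within the P7 range, and P7 replicate 2 lay within the P1 range. The log2FC was 0.43 (95% interval -0.0038 to 0.86, limma adjusted p = 0.274), and the gene was called in none of 21 other settings, over which the limma adjusted p ran from 0.0495 to 0.518. GENCODE places the noncoding gene 1700015O11Rik on the opposite strand over Vhl, and it is not known whether reads of the 2 were kept apart.

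Among the prolyl hydroxylases, Egln1 (chr8:124908596-124949254, minus strand) had the highest level at both stages. Known as the main oxygen sensor of the family, it measured 38.0, 31.4, 22.1 and 48.2 FPKM at P1 and 55.6, 42.6, 63.4 and 57.5 FPKM at P7. The stages overlapped only through P1 replicate 4 and P7 replicate 2. The means were 34.9 ± 10.97 (SD, n = 4) and 54.8 ± 8.76 (SD, n = 4), a log2FC of 0.67 (95% interval 0.15 to 1.19) that was not called (limma adjusted p = 0.158). Without P1 replicate 4 it was called (log2FC 0.84, limma adjusted p = 0.0407), and over 21 other settings the limma adjusted p ran from 0.0371 to 0.623.

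Egln2 (chr7:27153714-27166802, minus strand) was called higher at P7. Its FPKM was 11.3, 7.38, 7.85 and 11.8 in the P1 hearts and 20.8, 16.4, 22.2 and 17.7 in the P7 hearts. All P7 hearts lay above all P1 hearts. The mean went from 9.59 ± 2.30 (SD, n = 4) to 19.3 ± 2.68 (SD, n = 4), a ratio of 2.01 and a log2FC of 0.95 (standard error 0.20, 95% interval 0.51 to 1.39, limma adjusted p = 0.0265). Leaving out P1 replicate 2, P1 replicate 3 or any of P7 replicates 1, 3 and 4 took away the call, with log2FC of 0.85, 0.88, 0.92, 0.89 and 0.99 and limma adjusted p of 0.105, 0.0677, 0.0823, 0.0801 and 0.0541. The transcript of Egln2 is GC-rich, at 62.2% against a median of 49.1% for tested annotated loci. After GC correction the log2FC was 0.49, the stages overlapped and the call was lost (limma adjusted p = 0.277, range 0.00616 to 0.376 over 21 other settings, 12 of them with a call).

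Egln3 (chr12:54178981-54203860, minus strand), itself known as a target of HIF, had 14.8, 14.3, 9.92 and 12.5 FPKM at P1 and 11.5, 6.69, 16.3 and 10.7 FPKM at P7. The P7 hearts held both the highest and the lowest of the 8 values. The log2FC was -0.22 (95% interval -0.75 to 0.31, limma adjusted p = 0.598), and no other setting gave a call.

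Within the hearts, the 3 hydroxylases were present in different proportions at the 2 stages. Egln2 made up 17.7%, 13.9%, 19.7% and 16.3% of their summed FPKM in the P1 hearts and 23.7%, 24.9%, 21.8% and 20.6% in the P7 hearts. Egln3 made up 23.1%, 27.0%, 24.9% and 17.3% at P1 and 13.1%, 10.2%, 16.0% and 12.5% at P7. No P7 heart overlapped with the P1 hearts in the Egln2 share, which was higher, or in the Egln3 share, which was lower, whereas the Egln1 share overlapped (55.5% to 66.5% at P1 and 62.2% to 66.9% at P7). After GC correction the stages overlapped for Egln2 (14.9% to 20.4% against 19.9% to 22.5%) and for Egln3 (15.4% to 24.9% against 11.8% to 17.5%).

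The vascular endothelial growth factor gene Vegfa (chr17:46016993-46032390, minus strand), the classical HIF target that drives vessel growth, had the largest positive log2FC of the 10 genes. It measured 103.3, 76.4, 47.8 and 123 FPKM at P1 and 160.5, 165, 211 and 177 FPKM at P7. The stages did not overlap. The mean was 87.6 ± 32.7 (SD, n = 4) at P1 and 178 ± 22.8 (SD, n = 4) at P7, a ratio of 2.03 and a log2FC of 1.09 (standard error 0.27, 95% interval 0.51 to 1.68, limma adjusted p = 0.0443). The call was lost when any heart but P1 replicate 4 was left out, with a log2FC between 0.83 and 1.20 and a limma adjusted p between 0.0589 (without P1 replicate 1) and 0.134 (without P1 replicate 2). Without P1 replicate 4 the log2FC was 1.28 (limma adjusted p = 0.0137). GC correction left the log2FC at 1.06 and the stages apart but not the call (limma adjusted p = 0.0736, range 0.00842 to 0.134 over 21 other settings, 10 of them with a call).

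Adm (chr7:110627669-110629819, plus strand), which encodes the vasodilator adrenomedullin, had 6.42, 6.38, 4.81 and 6.98 FPKM at P1 and 9.08, 11.2, 12.6 and 10.4 FPKM at P7. It overlaps the antisense gene Gm28863 of GENCODE, and it is not known whether reads of the 2 were kept apart. The lowest P7 heart stood clear of the highest P1 heart. The mean was 6.15 ± 0.933 (SD, n = 4) at P1 and 10.8 ± 1.46 (SD, n = 4) at P7, a ratio of 1.76 and a log2FC of 0.72 (standard error 0.18, 95% interval 0.33 to 1.12, limma adjusted p = 0.0479). As for Vegfa, only the fit without P1 replicate 4 kept the call among those that left out a heart (log2FC 0.78, limma adjusted p = 0.0255). In the other fits of this kind the log2FC was 0.63 to 0.80 and the limma adjusted p 0.0849 (without P7 replicate 1) to 0.144 (without P7 replicate 3). The call was also lost with median-ratio scaling (log2FC 0.49, limma adjusted p = 0.0661) and with GC correction (log2FC 0.70, limma adjusted p = 0.0792), and in both the stages stayed apart. Over 21 other settings the limma adjusted p ran from 0.0187 to 0.171, with 6 calls.

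**Figure D3:**
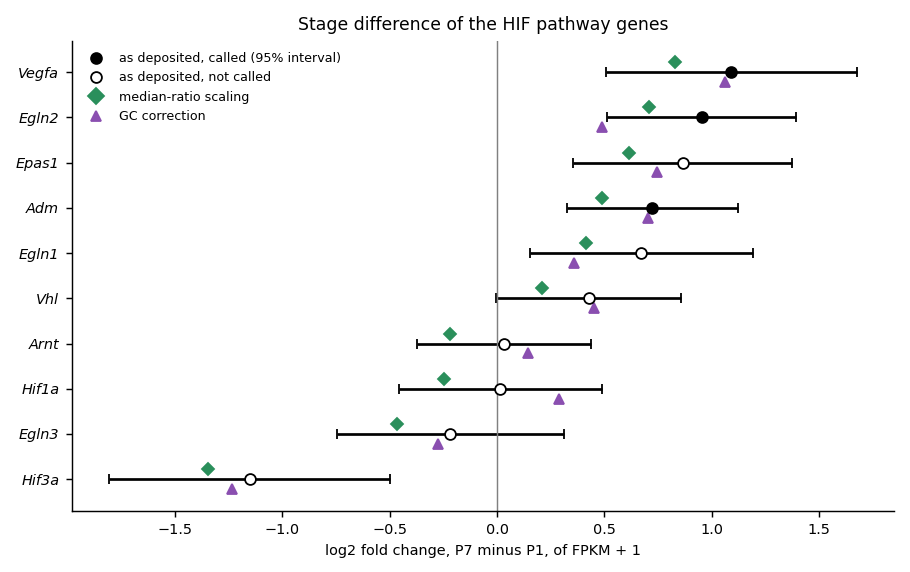
Log2 fold change of FPKM + 1 between P7 and P1 (horizontal axis) for the 10 genes, with the 95% interval of the limma fit as black bars and filled circles for called genes. Green diamonds give the value after median-ratio scaling and purple triangles that after GC correction, which lies at 0.49 for Egln2 against 0.95 as deposited.

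In promoters, HIF binds the core letters ACGTG or GCGTG within the hypoxia response element. These letters were searched on both strands from 250 bases before to 50 bases after the RefSeq transcription start (GRCm38.p6), where 9 of the 10 genes were matched with 11 windows in all. At least 1 match lay in 9 windows of 8 genes, against 43.8% of all 32851 windows. Both sets of letters contain CG, and the 11 windows had a GC content of 49.3% to 86%. The share of all windows was not matched for GC content. The 250 bases before the start are shown for the 3 called genes and for Hif3a, the gene with the largest negative log2FC, read 5′ to 3′ along the gene, with matches on either strand in capitals (CACGT and CACGC are the letters of the opposite strand). Of all windows, 38.6% hold a match in these 250 bases.
Egln2, chr7:27166803-27167052, minus strand: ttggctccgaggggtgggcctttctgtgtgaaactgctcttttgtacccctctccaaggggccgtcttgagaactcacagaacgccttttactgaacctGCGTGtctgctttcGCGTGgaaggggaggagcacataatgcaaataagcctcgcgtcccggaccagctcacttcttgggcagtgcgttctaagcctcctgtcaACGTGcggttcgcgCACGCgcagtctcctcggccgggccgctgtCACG
Adm, chr7:110627407-110627656, plus strand: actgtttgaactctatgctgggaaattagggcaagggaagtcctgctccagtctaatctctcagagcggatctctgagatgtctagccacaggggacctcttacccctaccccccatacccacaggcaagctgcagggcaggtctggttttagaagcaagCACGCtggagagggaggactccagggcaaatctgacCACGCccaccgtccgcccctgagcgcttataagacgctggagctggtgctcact
Hif3a, chr7:17062428-17062677, minus strand: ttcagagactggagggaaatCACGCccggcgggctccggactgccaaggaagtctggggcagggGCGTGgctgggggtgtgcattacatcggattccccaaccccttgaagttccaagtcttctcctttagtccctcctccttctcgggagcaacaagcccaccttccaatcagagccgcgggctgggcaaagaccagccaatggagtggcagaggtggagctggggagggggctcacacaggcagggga
Vegfa, chr17:46032378-46032627, minus strand: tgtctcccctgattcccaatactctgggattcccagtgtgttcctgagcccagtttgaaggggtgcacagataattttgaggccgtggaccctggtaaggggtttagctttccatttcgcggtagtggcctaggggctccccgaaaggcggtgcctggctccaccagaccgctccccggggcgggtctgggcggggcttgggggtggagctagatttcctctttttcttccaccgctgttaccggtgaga
Before the start of Egln2 lie 4 matches, and its last 4 capitals begin a palindrome, CACGTG, which crosses the start and matches once on each strand. Adm and Hif3a have 2 GCGTG matches each, and Vegfa has none in this window. A second Vegfa window, at a start inside the gene, has 1 match of each kind. Matches are a description of the letters and do not show binding.

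The levels of the 10 genes fell in a similar order at both stages. By mean FPKM the order at P1 was Hif1a, Vegfa, Egln1, Arnt, Epas1, Egln3, Egln2, Adm, Hif3a and Vhl. At P1 all neighbours in this order overlapped in their ranges over hearts except Egln2 and Adm. At P7 it was Vegfa, Hif1a, Egln1, Epas1, Arnt, Egln2, Egln3, Adm, Vhl and Hif3a, and there Vegfa stood clear of Hif1a, Hif1a of Egln1, Egln1 of Epas1, Egln2 of Egln3 and Adm of Vhl. Vegfa, which overlapped with Hif1a at P1 (47.8 to 123 against 73.6 to 111 FPKM), was thus above it in every heart at P7. Among tested annotated loci the means of the 10 genes ranged from the percentile 44.2 (Hif3a) to 96.9 (Vegfa).

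Other genes of the pathway were taken from lists of 82 genes, of which 80 were tested. Called were 6, or 7.5%, all higher at P7, beside 8.14% of tested annotated loci. Of the 80, 55 had a positive log2FC and 25 a negative one, and among tested annotated loci 67.6% had a positive one. The median was 0.33, beside 0.19 for those loci. In 14 genes every P7 heart lay above every P1 heart, or in 17.5% beside 17.3% of tested annotated loci. With median-ratio scaling the median was 0.08 and 12, or 15%, were called, 7 higher and 5 lower, beside 11.8% of tested annotated loci. With GC correction 0 were called by limma (26 had an unadjusted p under 0.05). With both, an alternative chosen after seeing the data, the calls were 0 higher and 5 lower (Eno1, Hsp90aa1, Mif, Pgk1 and Slc2a1).

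Among other subunits and regulators, 0 of 1 (Arnt2, another beta subunit), 0 of 2 hydroxylases, 0 of 4 ligase subunits and 1 of 10 coactivators and modulators were called by limma, and 0, 1, 0 and 5 had an unadjusted p under 0.05. Of tested annotated loci 8.14% were called, and of all tested loci 18.5% had such an unadjusted p (not computed for annotated loci). Os9, whose product is known to bind HIF alpha and the hydroxylases, rose from 7.17 ± 2.78 (SD, n = 4) to 15.3 ± 2.59 FPKM (SD, n = 4), a log2FC of 1.04 (standard error 0.24, limma adjusted p = 0.0324). The membrane-bound hydroxylase P4htm had 1.32 to 3.37 FPKM at P1 and 3.68 to 6.83 at P7 (log2FC 0.92, limma adjusted p = 0.0703), and was called higher with median-ratio scaling (log2FC 0.74, limma adjusted p = 0.0495). Hif1an, the asparaginyl hydroxylase that blocks coactivator binding, had 6.88 to 10.98 and 9.40 to 12.5 FPKM (log2FC 0.30, limma adjusted p = 0.408). The elongins Tceb1 and Tceb2, with Rbx1 and Cul2 the partners of Vhl in the ligase, overlapped between stages, with log2FC of 0.19, 0.26, 0.08 and -0.26. On the median-ratio scale Tceb1 and Rbx1 were at -0.08 and -0.18, and Cul2 fell short of the 1.5-fold difference at -0.51 (limma adjusted p = 0.0250). Cited2, which competes with HIF for its coactivators, had 5.30 to 7.95 FPKM at P1 and 10.48 to 22.1 at P7 without a call (log2FC 0.91, limma adjusted p = 0.0559). The chaperone Hsp90aa1, known to stabilise Hif1a, had 52.1 to 81.4 and 30.5 to 53.0 FPKM (log2FC -0.59, limma adjusted p = 0.176), and was called lower with median-ratio scaling (log2FC -0.85, limma adjusted p = 0.00814).

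None of the 12 tested ligands and receptors of the VEGF and adrenomedullin families other than Vegfa and Adm was called by limma. An unadjusted p under 0.05 was found for 6, beside 18.5% of all tested loci (not computed for annotated loci). A positive log2FC was found for 11, beside 67.6% of tested annotated loci. The VEGF receptor Kdr had 16.7 to 31.1 FPKM at P1 and 24.0 to 40.9 at P7 (log2FC 0.54, limma adjusted p = 0.236). Flt1, the decoy receptor, had 6.86 to 13.9 and 7.29 to 13.4 FPKM (log2FC 0.08, and -0.16 with median-ratio scaling), and Flt4, the receptor of lymphatic vessels, 1.70 to 3.45 and 3.24 to 4.43 FPKM (log2FC 0.40). Of the co-receptors, Nrp2 had 12.3 to 29.9 and 29.1 to 55.1 FPKM (log2FC 1.05, limma adjusted p = 0.0600). With median-ratio scaling Nrp2 was called higher (log2FC 0.79, limma adjusted p = 0.0370). Nrp1 had 35.7 to 59.6 and 35.1 to 54.0 FPKM (log2FC 0.02, and -0.23 with median-ratio scaling). The ligand Vegfb had 58.5 to 80.3 FPKM at P1 and 96.5 to 129 FPKM at P7, without overlap and without a call (log2FC 0.62, limma adjusted p = 0.106). Pgf and Vegfc were weakly expressed, with log2FC of 0.56 and 0.36.

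For adrenomedullin, the receptor Calcrl had 27.5 to 50.04 FPKM at P1 and 20.6 to 43.2 at P7 (log2FC -0.11, limma adjusted p = 0.820). Its partner Ramp2 shares a locus with Vps25, which had 71.5 to 91.6 FPKM at P1 and 107 to 167 at P7 (log2FC 0.73, limma adjusted p = 0.0615). Reads of these 2 genes were summed by the authors and cannot be told apart. Ramp1 had 11.8 to 15.8 and 16.2 to 26.0 FPKM (log2FC 0.49, limma adjusted p = 0.205), and Ramp3 was near 1 FPKM at both stages. Adm2 was under 1 FPKM in every heart and was not tested.

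The 19 glucose and lactate targets tested were divided, with 9 positive and 10 negative log2FC and a median of -0.01. None was called by limma, and 3 had an unadjusted p under 0.05, beside 18.5% of all tested loci (not computed for annotated loci). Aldoa, an aldolase on a locus shared with Gm15676, had 291 to 573 FPKM at P1 and 574 to 1100 at P7 (log2FC 0.77, limma adjusted p = 0.162). The glycolytic enzyme genes Gapdh, Tpi1 and Ldha had log2FC of 0.56, 0.45 and 0.11, and the pyruvate kinase gene Pkm one of 0.47, with overlapping stages for all 4, and Ldha was at -0.15 with median-ratio scaling. Slc2a1, the main glucose transporter of the fetal heart, had the lowest log2FC of the list, with 9.19 to 12.0 FPKM at P1 and 4.09 to 10.95 FPKM at P7 (log2FC -0.64, limma adjusted p = 0.209). With median-ratio scaling Pgk1 and Eno1, enzymes of lower glycolysis, were called lower (log2FC -0.80 and -0.63, limma adjusted p = 0.0187 and 0.0311), and without it neither was (log2FC -0.53 and -0.36). The median of the list on that scale was -0.26.

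Of 32 other direct targets, 5, or 15.6%, were called, all higher at P7, beside 8.14% of tested annotated loci (7.74% higher). Of the 30 with a locus of their own, 4 were called. An unadjusted p under 0.05 was found by limma for 13, beside 18.5% of all tested loci (not computed for annotated loci). The median log2FC was 0.39. Ddit4, an inhibitor of mTOR signaling, rose from 3.72 ± 1.19 to 10.4 ± 2.91 FPKM (SD, n = 4 each, log2FC 1.28, standard error 0.24, limma adjusted p = 0.0184). Cox4i2, the hypoxic form of a cytochrome c oxidase subunit, rose from 7.74 ± 0.547 to 18.8 ± 4.17 FPKM (SD, n = 4 each, log2FC 1.16, standard error 0.19, limma adjusted p = 0.0109). Pdgfb, the endothelial growth factor that recruits pericytes, rose from 4.34 ± 1.44 to 10.97 ± 1.32 FPKM (SD, n = 4 each, log2FC 1.20, standard error 0.22, limma adjusted p = 0.0157). Hmox1, the heme-degrading enzyme, rose from 3.40 ± 0.950 to 6.60 ± 0.756 FPKM (SD, n = 4 each, log2FC 0.81, standard error 0.21, limma adjusted p = 0.0487), a call that was lost with median-ratio scaling (log2FC 0.60, limma adjusted p = 0.0880). The last called locus holds Epo together with Gnb2 (log2FC 0.92, limma adjusted p = 0.0263), so its value cannot be assigned to the erythropoietin gene, and its call too was lost on that scale (log2FC 0.66, limma adjusted p = 0.0512). With median-ratio scaling Edn1 and Ero1l were called lower (log2FC -0.62 and -0.66, limma adjusted p = 0.0357 and 0.00955) and Nos3 higher (log2FC 0.77, limma adjusted p = 0.0359). Among the most abundant targets that were not called, Mif had a log2FC of -0.41, Tfrc of -0.50, Bnip3l of 0.34, Higd1a of -0.06 and Bnip3 of 0.08, all with overlapping stages. On the median-ratio scale these were -0.67, -0.76, 0.08, -0.32 and -0.17, without a call. Mif was called lower with quantile normalization.

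**Figure D4:**
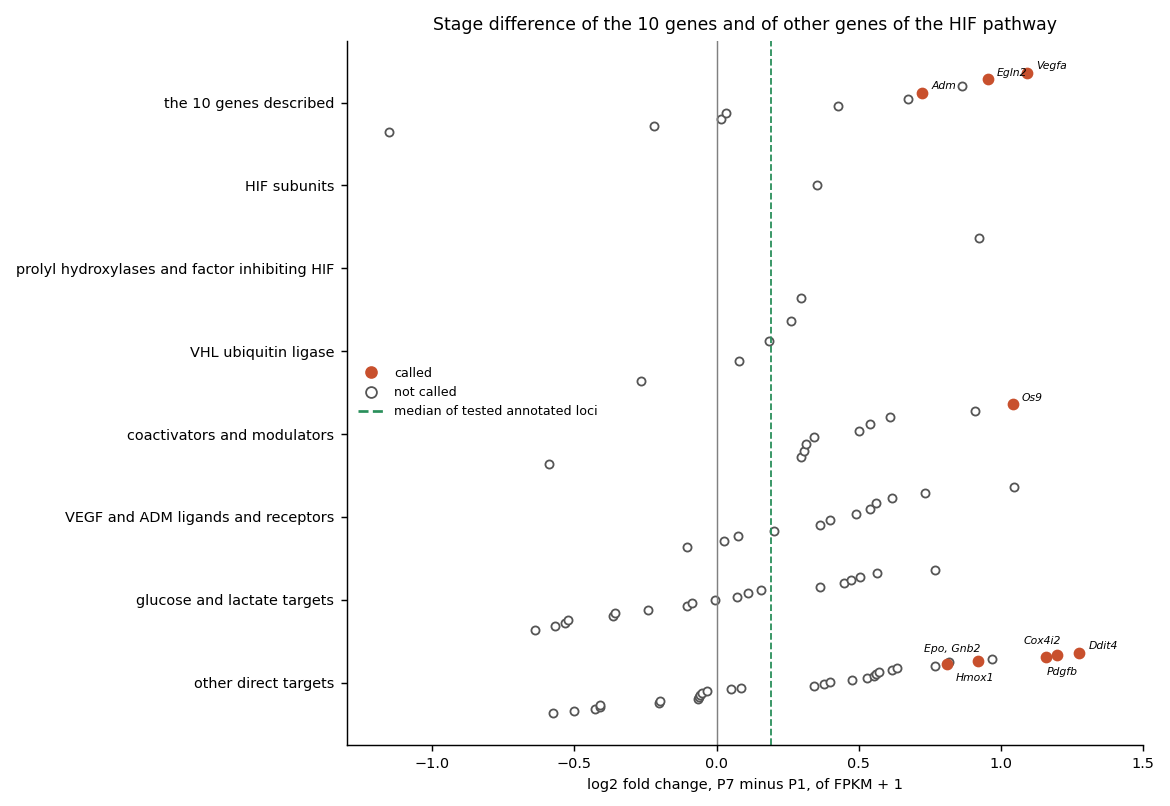
Log2 fold change of FPKM + 1 between P7 and P1 (horizontal axis) for the 10 genes and for 80 other genes of the HIF pathway in 7 lists, 1 circle per gene, spread vertically within a list only for legibility. Filled red circles are called genes and the dashed line is the median of tested annotated loci (0.19), and all called genes lie to the right of 0.5.

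Since the hearts were sequenced whole, fewer cells of a type and less RNA per cell cannot be told apart. The tissue label held by its markers, as the cardiomyocyte genes Myh6, Actc1 and Tnnt2 had at least 560.3 FPKM in every heart. Of 6 cardiomyocyte markers 0 were called by limma (2 with an unadjusted p under 0.05), and their summed level overlapped (9189 to 17757 FPKM at P1 and 11629 to 19373 at P7). Of 7 endothelial markers 4 were called higher, with sums of 129 to 208 and 258 to 383 FPKM that did not overlap. Egfl7 and Esam, 2 of the 4, share their loci with other genes, and the sums of the other 5 markers overlapped (74.4 to 122 and 100 to 148 FPKM). Emcn went the other way, with 27.4 to 32.6 FPKM at P1 and 17.1 to 26.6 at P7, without overlap and without a call (log2FC -0.43, limma adjusted p = 0.245). Its log2FC was -0.68 with median-ratio scaling (limma adjusted p = 0.00955) and -0.14 with GC correction (limma adjusted p = 0.644). Tek had a log2FC of 0.03 (-0.22 with median-ratio scaling). Of 6 fibroblast markers 4 were called higher (sums of 450 to 812 and 1048 to 1301 FPKM), and of 6 smooth muscle and pericyte markers 2 (81.8 to 165 and 122 to 206 FPKM). With GC correction the limma adjusted p stayed under 0.05 for Egfl7 and for the fibroblast markers Tcf21, Dcn and Lum (0.0320, 0.0439, 0.0274 and 0.0133). For the other called markers (Cdh5, Tie1, Esam, Col1a1, Pdgfrb and Kcnj8) it was 0.0669 to 0.193. Of 5 tested leukocyte markers (5.76 to 9.36 and 8.54 to 10.8 FPKM) and 5 tested erythroid markers (315 to 960 and 920 to 1222 FPKM) none was called by limma, with 2 and 4 at an unadjusted p under 0.05. The T cell marker Cd3e was under 1 FPKM in every heart. Beside the marker counts stand 8.14% of tested annotated loci called, and 18.5% of all tested loci with an unadjusted p under 0.05 by limma (not computed for annotated loci). The part of the endothelial, fibroblast and pericyte markers in the stage differences of Vegfa, Adm, Egln2, Epas1, Pdgfb and the VEGF receptors was not tested.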

How the data were processed

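RNA of whole hearts was ribodepleted, made into libraries with the ScriptSeq v2 kit and sequenced in paired-end reads, 1 library per heart, 4 at P1 and 4 at P7. The authors deposited FPKM per locus, scaled to locus length and mapped fragments, on GRCm38 (per the labels) with Ensembl release 70 annotation. The aligner and the use of strand in counting are not given in the sources used here. The files hold no fragment counts, so that no interval for counting error is given.

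Symbols joined by commas were split and matched without regard to case, and of several loci with 1 symbol the most abundant was taken. Loci reaching 1 FPKM in any heart were put on the log2 scale with a pseudocount of 1 and fitted with limma 3.58.1 in R 4.3.3 (lmFit, eBayes with trend, all 8 hearts, no covariates). Calls needed an adjusted p (Benjamini-Hochberg) under 0.05 and a 1.5-fold difference of the means. The samples are separate hearts per the study's methods, and the labels give a stage and a replicate number for each. GC correction subtracted a lowess trend (span 0.3) of each heart's deviations on the GC content of the longest GENCODE M21 transcript, known for 91.8% of tested annotated loci and for all 10 genes. Python 3.11.15 with pandas 2.3.3 and numpy 2.4.6 was used for the tables. The fit was tested on simulated data. Alternatives were another pseudocount, other filters, other scalings, a replicate block, the adjusted p without the ratio, eBayes without trend, quality weights of the samples, GC correction and each heart left out in turn.

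The 10 genes and the lists were chosen with earlier results of these data known, so no p is given over a list. Named from the lists were the called genes, the most abundant of the rest, the receptors and, chosen after their values were seen, Cited2, Slc2a1 and the genes called under median-ratio scaling that are named as such. Protein sequences were not used here. Listed genes not named enter the counts only.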

Additional observations from a re-analysis of the deposited data

Results flagged for a closer look

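In 13 of 206 groups of 4 hearts (1 gene, ratio or marker sum at 1 stage), the gap between the most extreme heart and its nearest neighbour exceeded Dixon's 95% critical value as a share of the group's range. About 10.3 would do so by chance at 1 in 20, and the groups share the same 8 hearts.

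For Hif3a the gap was 0.883 of the range, as P7 replicate 1 had 5.12 FPKM and the other P7 hearts 1.31 to 1.75. The same heart stood apart for Cited2 (0.846), with 22.1 FPKM against 10.48 to 12.3.

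P7 replicate 3 stood above the other P7 hearts for Slc16a3, a lactate transporter (0.851, 7.10 FPKM against 2.47 to 3.16), the glycogen synthase gene Gys1 (0.891, 28.4 against 13.6 to 15.2), the prolyl 4-hydroxylase gene P4ha2 (0.896, 8.88 against 5.59 to 5.94) and the VEGF family ligand Pgf (0.8292, 4.25 against 2.43 to 2.74). P7 replicate 2 was low for Lox (0.847, 14.8 FPKM against 21.8 to 23.1).

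P1 replicate 4 stood above the other P1 hearts for Nrp1 (0.849, 59.6 FPKM against 35.7 to 39.3), P4ha1 (0.882, 14.0 against 8.20 to 8.89), Tfrc (0.896, 112 against 86.6 to 89.2), Tgfb3 (0.869, 10.8 against 4.20 to 5.06) and the summed smooth muscle and pericyte markers (0.893, 165 against 81.8 to 90.7). P1 replicate 2 was low for Hmox1 (0.856, 1.99 FPKM against 3.72 to 4.01).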

How the results depend on the processing

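Of the 10 genes, 3 were called. The count was 0 with no filter and 0 with GC correction (by limma, with 7 and 6 at an unadjusted p under 0.05). It was 1 with eBayes without trend (Egln2, higher) and 1 with GC correction and replicate block (Hif3a, lower). A filter on every heart gave 5 and annotated loci only gave 5, in each case 4 higher and Hif3a lower. Sample quality weights gave 6, 5 higher and Hif3a lower. Of tested annotated loci 620 of 31885 were called with no filter, 2573 of 12730 with a filter on every heart and 2521 of 17960 with annotated loci only. Of 17960 such loci 375 were called with GC correction, 380 with GC correction and replicate block, 941 with eBayes without trend and 2951 with sample quality weights. When a heart was left out, 0 to 5 of the 10 genes were called. By limma the count was 0 without P1 replicate 2 or 3 (with 6 and 5 at an unadjusted p under 0.05) and 0 without P7 replicate 3 or 4 (6 and 6). It was 1 without P7 replicate 1 (Hif3a, lower), and 1 without P7 replicate 2 or P1 replicate 1 (Egln2 in both, higher). Without P1 replicate 4 it was 5, all higher. Of tested annotated loci 167 of 17856 (without P1 replicate 2) to 2835 of 17671 (without P1 replicate 4) were called when a heart was left out.

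Of the 80 other pathway genes, 6 were called. The count was 14 with a filter on every heart, 13 with annotated loci only, 12 with median-ratio scaling, 11 with quantile normalization, 14 with sample quality weights, 0 with GC correction and 0 with GC correction and replicate block (by limma, with 26 and 24 at an unadjusted p under 0.05), and 1 to 13 when a heart was left out, lowest without P1 replicate 2 or P7 replicate 1 and highest without P1 replicate 4.

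Over all 43172 tested loci 1650 were called. With no filter 686 of 72425 were, with a filter on every heart 2711 of 14340 and with annotated loci only 2521 of 17960. Over the 43172 loci the count was 2554 with median-ratio scaling, 3697 with sample quality weights and 1079 with eBayes without trend. It was 454 with GC correction and 546 with GC correction and replicate block. Median-ratio scaling and GC correction together (chosen after seeing the data) gave 1049. When a heart was left out, 199 of 41471 (without P1 replicate 2) to 3379 of 41540 (without P1 replicate 4) were called. A filter and annotated loci only change how many loci share the adjustment, and leaving out a heart leaves fewer samples. For the other settings the cause was not tested.

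Hif1a turned to a log2FC of -0.25 with median-ratio scaling and -0.20 with quantile normalization, and Arnt to -0.22, -0.23 and, with median-ratio scaling and GC correction together, -0.11. When a heart was left out Hif1a ran from -0.0768 to 0.16 and Arnt from -0.0495 to 0.13. Neither was called in any setting, and the log2FC of the other 8 genes kept its sign in every setting run. The mean log2 difference of Epas1 relative to Hif1a went from 0.89 to 0.49 with GC correction and that of the Egln2 share from 0.44 to 0.25, and in the other 61 of 63 values the ratios moved by less than the spread between hearts.

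Between hearts with the same replicate number, the deviations from the stage means had correlations of -0.02, 0.12, -0.10 and -0.03. Such deviations cancel out over the hearts of a stage, which holds their correlations near 0 on average. The values show no clear pairing by number, but whether the numbers pair the hearts cannot be decided from them. With the replicate block 3 of the 10 genes were called (Hif3a lower, Egln2 and Vegfa higher, the last with an adjusted p of 0.0476 by limma). Called with it were also 6 of the 80 other genes, 1283 of all tested loci and 1052 of the 17960 annotated ones. How far depth limits the weak genes Vhl and Hif3a was not tested, since the files hold FPKM and no counts.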
